A study of Rattus norvegicus with 66 samples.

Results

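The hippocampus of low-dose male pups exposed to Aroclor 1254 (Aro0.5) was compared directly with that of low-dose male pups exposed to chlorpyrifos (CPF1). The members are all male pups of these 2 groups as the sample labels give them, 4 pups each, so that 8 of the 66 libraries of the series enter, from 64 pups. RNA was taken from Long Evans rats at postnatal day (PND) 6 from dorsal hippocampus with a small piece of neighbouring neocortex, and polyadenylated RNA was sequenced. Aro0.5 dams ate 0.5 mg/kg per day of Aroclor 1254 in soy-free chow, from before mating until PND 6. CPF1 dams were injected subcutaneously with chlorpyrifos, 1 mg/kg per day in dimethyl sulfoxide (DMSO), during gestation and again in the first postnatal days. Each pup came from a litter of its own, 8 litters in all, and pups were exposed through the dam up to the day of dissection. No control pups enter the main comparison, and chemical, dose, route, vehicle and length of exposure differ together, so that their parts cannot be told apart. The comparison asks where gene expression differs between male pups exposed to 2 endocrine disrupters of unlike chemistry, each at the lower of its 2 doses.

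Aroclor 1254 is an industrial mixture of polychlorinated biphenyls. Some of its congeners bind the aryl hydrocarbon receptor, and others act on calcium release channels and on thyroid hormone transport. Chlorpyrifos is an organophosphate insecticide whose oxon inhibits acetylcholinesterase and other serine hydrolases. In the first postnatal week the hippocampus is still receiving and maturing GABAergic interneurons, which arise in the ganglionic eminences of the ventral forebrain. Neurons draw their energy from oxidative phosphorylation, and part of its subunits is encoded by the mitochondrial genome itself.

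Library totals did not overlap, with 24689291 to 32005323 counts in Aro0.5 and 12403502 to 19224320 in CPF1. Levels are given as normalized CPM, counts scaled to a common library size after correction by the TMM method, and pups are listed in the order 105-5y, 106-3y, 94-3y, 98-8y for Aro0.5 and 16-7y, 21-1y, 60-6y, 63-5y for CPF1. Fold changes are Aro0.5 over CPF1 on the log2 scale. Genes used as markers of hippocampal neurons were counted in all 8 libraries. Prox1, a granule cell transcription factor that is also on the interneuron list, was at 68.0 to 158 normalized CPM. Neurod6, of pyramidal neurons, was at 106 to 177. As the dissection also held neocortex, these levels alone do not show which tissue they came from.

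No gene passed the threshold between Aro0.5 and CPF1. Of 15997 genes tested by edgeR's quasi-likelihood test, 0 (0%) had an adjusted p under 0.05, and the smallest adjusted p was 0.229. An unadjusted p under 0.05 was found for 812 genes higher in Aro0.5 (5.08%) and 576 lower (3.6%), and the 2 groups did not overlap for 418 genes higher (2.61%) and 286 lower (1.79%). DESeq2 called 45 genes on the same table, 25 higher and 20 lower in Aro0.5, and limma-voom called 0. Among the 45 were 9 of the 13 protein genes of the mitochondrial genome on the higher side and the interneuron genes Sst, Dlx1 and Dlx2 on the lower side. No difference given for a single gene below passed edgeR's adjusted threshold.

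The mitochondrial genome encodes subunits of respiratory complex I (ND1 to ND6 and ND4L), complex III (CYTB), complex IV (COX1 to COX3) and ATP synthase (ATP6 and ATP8). All 13 were higher in Aro0.5, with a median log2 fold change of 0.43 against -0.00 for all genes tested. At an unadjusted p under 0.05 stood 12 of them, against 5.08% of all genes on the higher side. The groups did not overlap for 12, against 2.61% of all genes on that side. ND1, a core subunit of complex I, had 8075, 10039.5, 9490.2 and 10064 normalized CPM in the Aro0.5 pups and 6216, 6645, 6569 and 7094 in the CPF1 pups. Every Aro0.5 pup lay above every CPF1 pup, at a mean of 142% of CPF1 (log2 fold change 0.51, SE 0.09, edgeR adjusted p = 0.229, DESeq2 adjusted p = 4.74e-05). ATP6, the proton channel subunit of ATP synthase, had 12636, 15676, 15271 and 15167 normalized CPM in the Aro0.5 pups and 9923, 10577, 10257 and 11025 in the CPF1 pups. Pup 105-5y was the lowest of Aro0.5 for ATP6 and still above the highest CPF1 pup (log2 fold change 0.49, SE 0.09, edgeR adjusted p = 0.229, DESeq2 adjusted p = 4.74e-05). CYTB, the only complex III subunit of this genome, had 10024, 11857, 11226 and 11266 normalized CPM in the Aro0.5 pups and 7732, 8409.9, 7974 and 8499 in the CPF1 pups, again without overlap (log2 fold change 0.44, SE 0.08, edgeR adjusted p = 0.229, DESeq2 adjusted p = 3.20e-05). COX1, the catalytic subunit of complex IV, was at 137% of its CPF1 mean (DESeq2 adjusted p = 0.000212). The exception was ND6, the only protein gene on the other strand of the circle, with 72.4, 93.2, 88.8 and 69.0 normalized CPM in the Aro0.5 pups and 76.9, 65.4, 80.7 and 86.5 in the CPF1 pups, where the groups overlapped (log2 fold change 0.06, edgeR adjusted p = 0.882).

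Together these 13 genes took 8.34% to 9.68% of all counts in Aro0.5 and 6.51% to 7.41% in CPF1. For comparison, the share was 6.89% to 8.08% in the male libraries of feeding controls (CONF), 6.31% to 7.10% in those of injection controls (CONSC), and 8.23% to 10.3% in the low-dose males of bisphenol A. With all libraries thinned to the total of the smallest, the median of the 13 genes was 0.42, and the part of library totals in it was not tested. Nuclear genes of oxidative phosphorylation did not show a shift of this size: of 80 tested, 59 were higher and 21 lower, the median was 0.07. On the higher side 7 stood at an unadjusted p under 0.05, against 5.08% of all genes. Trnm, the mitochondrial transfer RNA for methionine, which polyadenylated libraries catch only in part, pointed the other way, with 17.5, 22.8, 20.7 and 21.1 normalized CPM in the Aro0.5 pups and 28.7, 30.2, 27.6 and 26.9 in the CPF1 pups and no overlap (log2 fold change -0.47, SE 0.09, edgeR adjusted p = 0.264, DESeq2 adjusted p = 0.00842).

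**Figure D1:**
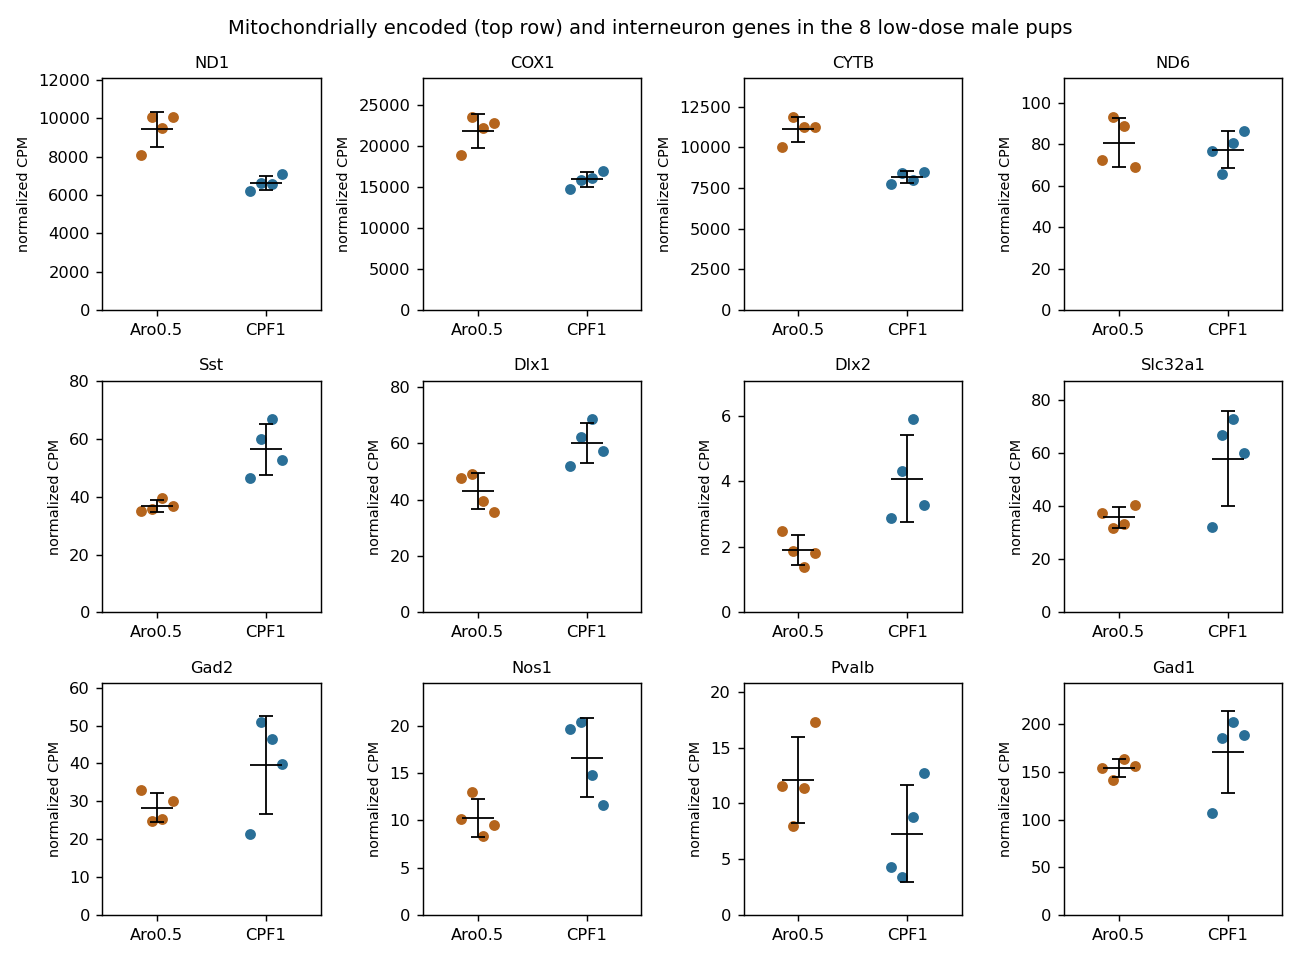
Normalized CPM of 4 mitochondrially encoded genes (top row) and 8 interneuron genes in each of the 4 Aro0.5 and 4 CPF1 pups, with points for pups, a horizontal line for the mean and bars for 1 SD. ND1, COX1, CYTB, Sst, Dlx1 and Dlx2 do not overlap between the groups, while ND6, Slc32a1, Gad2, Nos1, Pvalb and Gad1 do.

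Of 27 interneuron genes listed, 26 were tested, and Npy had 0 counts in all 8 pups. A gene at 0 counts in every pup, as were Npy, Faah and Otx2, is listed at 0 and is not thereby shown to be absent from the tissue. Lower in Aro0.5 were 19 and higher 7, with a median of -0.40. At an unadjusted p under 0.05, 11 stood on the lower side, against 3.6% of all genes, and 0 on the higher side. The groups did not overlap for 4, all lower, against 1.79% of all genes. Sst encodes somatostatin, the peptide of dendrite-targeting interneurons. It had 35.1, 35.8, 39.6 and 36.9 normalized CPM in the Aro0.5 pups and 46.5, 59.8, 66.8 and 52.8 in the CPF1 pups. The highest Aro0.5 pup lay below the lowest CPF1 pup, at a mean of 65.3% of CPF1 (log2 fold change -0.62, SE 0.10, edgeR adjusted p = 0.229, DESeq2 adjusted p = 0.000145).

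Transcription factors of interneuron origin and migration held 7 of these 11 places. Dlx1, a homeobox factor of interneurons from the ganglionic eminence, had 47.7, 49.1, 39.6 and 35.8 normalized CPM in the Aro0.5 pups and 52.0, 62.5, 68.5 and 57.4 in the CPF1 pups, without overlap (log2 fold change -0.48, SE 0.11, edgeR adjusted p = 0.400, DESeq2 adjusted p = 0.0478). Its neighbour Dlx2 was scarce, with 33 to 93 counts per pup, and had 2.50, 1.89, 1.39 and 1.81 normalized CPM in the Aro0.5 pups and 2.89, 4.30, 5.89 and 3.26 in the CPF1 pups. The groups did not overlap, and among the 26 tested members Dlx2 had the most negative value (log2 fold change -1.11, SE 0.25, edgeR adjusted p = 0.386, DESeq2 adjusted p = 0.0215). Dlx5 (-0.67), Dlx6 (-0.78), Lhx6 (-0.39) and Sp8 (-0.41) had negative log2 fold changes at an unadjusted p under 0.05 with overlapping groups.

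Genes of GABA synthesis and release did not move as one. Slc32a1, the vesicular GABA transporter, had 37.6, 31.8, 33.3 and 40.6 normalized CPM in the Aro0.5 pups and 32.2, 66.8, 72.7 and 60.1 in the CPF1 pups, and CPF1 pup 16-7y lay among the Aro0.5 pups (log2 fold change -0.70, SE 0.20, edgeR adjusted p = 0.533). Gad2 gave -0.49 and Gad1, the main enzyme of GABA synthesis, -0.15 (edgeR adjusted p = 0.772). Of 21 tested genes for GABA-A receptor subunits and chloride cotransporters, 0 had an unadjusted p under 0.05 in edgeR, and likewise 0 of 17 for ionotropic glutamate receptors. Other genes of the interneuron list had positive values that did not pass: Pvalb 0.74, Calb2 0.45, Cck 0.25 and Nr2f2 0.28.

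Nos1, neuronal nitric oxide synthase, had 10.1, 13.0, 8.34 and 9.56 normalized CPM in the Aro0.5 pups and 19.7, 20.4, 14.8 and 11.6 in the CPF1 pups (log2 fold change -0.70, SE 0.19, edgeR adjusted p = 0.533). Pvalb, a calcium buffer of fast-spiking interneurons that is only beginning to appear at this age, had 11.6, 8.01, 11.4 and 17.3 normalized CPM in the Aro0.5 pups and 4.26, 3.39, 8.74 and 12.8 in the CPF1 pups (log2 fold change 0.74, SE 0.36, edgeR adjusted p = 0.585). Both overlapped between groups. The study read the balance of interneuron types from their ratio. The count ratio Pvalb/Nos1 was 1.15, 0.614, 1.36 and 1.81 in Aro0.5 and 0.216, 0.166, 0.590 and 1.10 in CPF1, with means of 1.23 ± 0.497 and 0.518 ± 0.432 (SD, 4 pups each). The lowest 2 pups, 16-7y and 21-1y, were both of CPF1, and the groups overlapped. These pups also had the lowest Pvalb and the lowest summed levels of thalamus and habenula genes (929 and 602 CPM). The part of such neighbouring tissue in Pvalb and in this ratio was not tested. The difference of 1.55 on the log2 scale gave p = 0.0571 in a 2-sided exact permutation test over 70 splits, with 0.0286 the smallest p that 4 against 4 allows, and an adjusted p of 0.114 over the 2 ratios tested. The ratio of the chloride extruder KCC2 (Slc12a5) to the importer NKCC1 (Slc12a2), which rises as GABA turns inhibitory, was 3.88 ± 1.05 in Aro0.5 and 3.31 ± 0.831 in CPF1. It differed by 0.23 on the log2 scale (exact permutation p = 0.457).

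Marker genes of tissue next to the hippocampus also differed in level between the groups. Over all genes tested, an unadjusted p under 0.05 was found for 5.08% on the higher side and 3.6% on the lower side. All 15 genes of the thalamus and habenula list were higher in Aro0.5 (median 0.67), 11 of them at an unadjusted p under 0.05, and none was at 0. Their summed level was 1529, 1090.0, 1838 and 1809 CPM in the Aro0.5 pups and 929, 602, 1215 and 1523 in the CPF1 pups, so that the sums overlapped. Without CPF1 pup 21-1y, which had the lowest sum, the median was 0.42 with 8 genes at that level, and the count was 5 without Aro0.5 pup 94-3y or 98-8y and 6 without CPF1 pup 16-7y. Of 15 striatum genes, 14 were lower (median -0.63) and 1 passed an unadjusted p of 0.05, with sums of 846, 617, 557 and 433 CPM in the Aro0.5 pups and 522, 1357, 836 and 725 in the CPF1 pups. Pup 21-1y held the highest sum, and without it the striatum median was -0.25 with 0 genes at that level in edgeR. The median was -0.85 with 11 genes at that level without Aro0.5 pup 105-5y and -0.86 with 10 without CPF1 pup 16-7y. With any other single pup left out the count lay between 0 and 3. All 11 choroid plexus genes tested were lower (median -0.51, 5 at an unadjusted p under 0.05), with Otx2 at 0 counts throughout. The median was -0.31 without Aro0.5 pup 94-3y, and with 1 pup left out the count ran from 0 (without CPF1 pup 60-6y) to 7 (without Aro0.5 pup 105-5y). Of 16 neocortical layer genes, 13 were lower (median -0.27, 4 at an unadjusted p under 0.05), with the highest sums in CPF1 pups 16-7y and 21-1y. The neocortical median was -0.16 with 1 gene at that level without pup 16-7y and -0.17 with 0 genes in edgeR without pup 21-1y, and the count ran from 0 to 8 (without Aro0.5 pup 106-3y) over all pups left out in turn. The tool mattered as well. With limma-voom the medians of the thalamus, striatum, choroid plexus and neocortical lists were 0.50, -0.43, -0.41 and -0.13. The counts at an unadjusted p under 0.05 were then 5, 0, 2 and 1, and with DESeq2 they were 7, 2, 3 and 4. Fewer cells of a type and less RNA per cell cannot be told apart in such bulk samples.

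**Figure D2:**
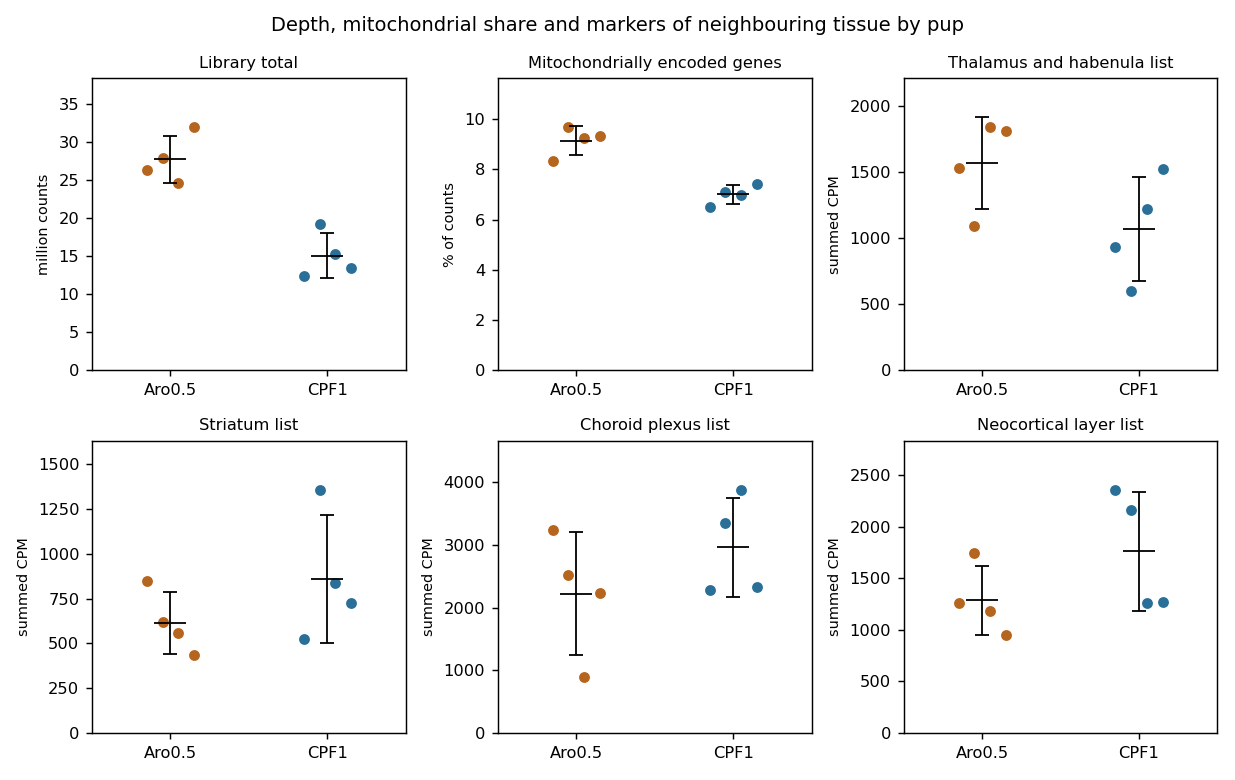
Library totals in counts, the percentage of counts on mitochondrially encoded genes, and summed CPM of 4 marker lists for each of the 4 Aro0.5 and 4 CPF1 pups, with means and 1 SD. Totals and the mitochondrial share do not overlap between the groups, and the sums of the 4 marker lists do.

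Dlx and Gad genes are also used by striatal neurons, and the part of the marker lists in the interneuron values was not tested. The striatum sums of CPF1 pups 16-7y (522 CPM), 60-6y (836) and 63-5y (725) lay inside the Aro0.5 range of 433 to 846. Sst and Dlx1 did not overlap over all pups, so that they lay above every Aro0.5 pup in these pups by necessity. Slc32a1 was above every Aro0.5 pup in 60-6y and 63-5y. Nos1 was so in 16-7y and 60-6y but not in 63-5y (11.6 normalized CPM). Pup 16-7y also had the highest neocortical sum (2356 CPM). In this pup Slc32a1 (32.2), Dlx5 (5.71) and Dlx6 (3.78 normalized CPM) were not above every Aro0.5 pup. Without pup 21-1y, 7 interneuron genes stood at an unadjusted p under 0.05 on the lower side, against 11 with all pups, and the count ran up to 14 without CPF1 pup 16-7y. With any single pup left out, 12 of the 13 mitochondrially encoded genes stood at that level on the higher side. Library totals and the summed level of housekeeping genes differed without overlap as well, the latter with 14796 to 16450 CPM in Aro0.5 and 13123 to 14701 in CPF1, and their part in these values was not tested.

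All genes named in this paragraph were also called by DESeq2. Bc1, a small noncoding RNA of neuronal dendrites, had 94.8, 149, 252 and 153 normalized CPM in the Aro0.5 pups and 56.9, 71.3, 73.1 and 76.6 in the CPF1 pups. All Aro0.5 pups were above all CPF1 pups, with pup 94-3y far above the rest (log2 fold change 1.22, SE 0.23, edgeR adjusted p = 0.248, DESeq2 adjusted p = 0.0306). Vamp2, a synaptic vesicle protein of the fusion machinery, had 1161, 1381, 1598 and 1574 normalized CPM in the Aro0.5 pups and 1075, 1073, 918 and 1077 in the CPF1 pups (log2 fold change 0.46, SE 0.10, edgeR adjusted p = 0.386, DESeq2 adjusted p = 0.0180). It was the only gene with non-overlapping groups among 29 synaptic vesicle and scaffold genes, whose median was 0.08. Rora, a nuclear receptor that is on the thalamus list, was at 159% of CPF1 (log2 fold change 0.67, SE 0.16, edgeR adjusted p = 0.407, DESeq2 adjusted p = 0.0348). Lgals1, a galectin, was at 147% and the matrix enzyme gene Lox at 253% of CPF1, with log2 fold changes of 0.56 and 1.36. Reg4, a secreted lectin, had 28, 39, 80 and 100 counts in Aro0.5 and 4, 0, 6 and 6 in CPF1. On the lower side, Marcksl1, a membrane and actin binding protein, was at 60.1% of CPF1 (log2 fold change -0.73, SE 0.15, edgeR adjusted p = 0.293, DESeq2 adjusted p = 0.00395), Pde8b, a cyclic AMP phosphodiesterase, at 76.7%, and the transcriptional regulator Irf2bpl at 77.3%. Pnmal2 was at 80.5%.

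Several of the strongest differences lay on pseudogenes or copies, for which reads cannot be assigned with certainty. These were Hmgb1-ps4 (0.71), Sumo2l (-0.55), Ybx1-ps4 (-0.98), Rps4y2 (-1.37) and the uncharacterized entries LOC297756 (-1.35), LOC100361457 (-1.05), LOC100362275 (0.85) and LOC102554622 (0.32), and DESeq2 called each of them except Ybx1-ps4. Il11, a cytokine, was at 1.99 against 3.62 normalized CPM (log2 fold change -0.86, SE 0.20, edgeR adjusted p = 0.400).

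Targets of the aryl hydrocarbon receptor, where an effect of dioxin-like biphenyls would be sought, gave no difference that passed a test. Of 21 genes listed, 13 were tested by edgeR and 0 had an unadjusted p under 0.05, with a median of -0.02. Cyp1a1, the classical target, had 0 to 6 counts per pup and was too scarce to test. Cyp1b1, a second monooxygenase of the family, had 3.06, 3.04, 1.52 and 3.56 normalized CPM in the Aro0.5 pups and 3.70, 1.37, 2.79 and 2.61 in the CPF1 pups (log2 fold change 0.13, SE 0.31, edgeR adjusted p = 0.912). Tiparp, a poly-ADP-ribose polymerase that restrains the receptor, had 14.5, 13.9, 11.7 and 11.3 normalized CPM in the Aro0.5 pups and 13.5, 14.3, 16.1 and 13.9 in the CPF1 pups (log2 fold change -0.17, SE 0.11, edgeR adjusted p = 0.663). Nqo1, a quinone reductase, had 17.2, 15.4, 15.7 and 14.9 normalized CPM in the Aro0.5 pups and 12.7, 12.9, 16.2 and 15.2 in the CPF1 pups (log2 fold change 0.15, SE 0.11, edgeR adjusted p = 0.694). In each of these 3 genes the groups overlapped. The receptor binds the core GCGTG, and the RefSeq sequences (build GRCr8, 250 bases before each annotated start, 5' to 3') are shown because all 3 hold that core, in capitals as GCGTG or as its reverse complement CACGC, in genes for which no difference was found.
Cyp1b1 (chr6:21094315-21094564, plus strand): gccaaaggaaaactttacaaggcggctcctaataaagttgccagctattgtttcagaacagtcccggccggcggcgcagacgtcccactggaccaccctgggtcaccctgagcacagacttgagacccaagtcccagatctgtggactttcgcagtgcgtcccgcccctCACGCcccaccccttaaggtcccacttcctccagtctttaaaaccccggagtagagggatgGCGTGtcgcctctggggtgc
Nqo1 (chr19:52220268-52220517, minus strand): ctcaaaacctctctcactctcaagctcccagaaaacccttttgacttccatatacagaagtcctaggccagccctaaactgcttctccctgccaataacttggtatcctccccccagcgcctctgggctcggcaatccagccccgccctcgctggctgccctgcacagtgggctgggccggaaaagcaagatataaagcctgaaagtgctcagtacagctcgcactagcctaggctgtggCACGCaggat
Tiparp (chr2:152063519-152063768, plus strand): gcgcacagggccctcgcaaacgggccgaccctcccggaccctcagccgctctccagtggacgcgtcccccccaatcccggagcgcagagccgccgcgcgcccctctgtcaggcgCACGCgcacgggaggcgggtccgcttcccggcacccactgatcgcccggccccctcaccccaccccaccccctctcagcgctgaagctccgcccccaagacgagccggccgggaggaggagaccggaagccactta
The core began 20 and 81 bases before the start of Cyp1b1, 10 before that of Nqo1 and 136 before that of Tiparp. On either strand, 7 of the 11 tested members with a promoter in the table held it, against 27.2% of all 27457 promoters. Such a match describes the letters and is not a binding site by itself.

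Genes of cholinergic transmission, the pathway of chlorpyrifos, gave few differences. Of 20 tested, 2 were higher in Aro0.5 at an unadjusted p under 0.05 and 0 lower, with a median of 0.06. Among all genes, 5.08% were higher and 3.6% lower at that level. Ache, the esterase that chlorpyrifos oxon inhibits as an enzyme, had 62.5, 50.7, 84.7 and 94.2 normalized CPM in the Aro0.5 pups and 45.3, 53.2, 63.0 and 71.4 in the CPF1 pups (log2 fold change 0.33, SE 0.19, edgeR adjusted p = 0.627). Bche, butyrylcholinesterase, gave 0.12. The nicotinic receptor subunits Chrna4 (0.32) and Chrnb4 (0.73) were the 2 at an unadjusted p under 0.05, both with overlapping groups. Of 17 serine hydrolases and endocannabinoid enzymes tested, Napepld, which makes anandamide and its relatives, was the 1 at that level (0.46), and Faah had 0 counts.

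Calcium store genes, the channels on which non-dioxin-like biphenyls act, had 13 higher and 9 lower of 22 tested. At an unadjusted p under 0.05 stood 1 on each side, against 5.08% higher and 3.6% lower of all genes. Ryr1, a ryanodine receptor, gave 0.42 (edgeR adjusted p = 0.580) and Ryr2 -0.25. Of 21 thyroid hormone genes tested, 6 were higher and 15 lower, with a median of -0.16. At an unadjusted p under 0.05 stood 2 on the higher side and 0 on the lower side, against 5.08% and 3.6% of all genes. The 2 were Crym, a cytosolic thyroid hormone binding protein (0.44), and Slco1c1, a thyroxine transporter of the blood-brain barrier (0.22), the latter without overlap. Dio2, which makes the active hormone, gave -0.05, and Dio3 was too scarce to test.

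Sox and Pou transcription factors guide neuronal differentiation and were the families the study followed most closely. They had 4 of 20 tested members on the lower side at an unadjusted p under 0.05, against 3.6% of all genes. On the higher side stood 0, against 5.08%, and the list median was -0.07. The median was -0.014 without Aro0.5 pup 94-3y and -0.15 without Aro0.5 pup 106-3y, and the count was 2 without pup 94-3y or CPF1 pup 16-7y. Sox11, of immature neurons, had 7.91, 7.41, 4.76 and 5.64 normalized CPM in the Aro0.5 pups and 11.3, 8.76, 9.12 and 8.20 in the CPF1 pups, without overlap (log2 fold change -0.54, SE 0.18, edgeR adjusted p = 0.541). Sox12 (-0.73), Pou3f2 (-0.52) and Pou3f3 (-0.44) were lower in Aro0.5 with overlapping groups. Sox6, a factor of interneurons from the medial ganglionic eminence, gave -0.25 and Pou2f2 -0.02. Among developmental signalling genes, Gli3 gave -0.33, Erbb4 -0.54, Efnb2 -0.60 and Tcf7l2, also a thalamus marker, 0.67. Both lists were chosen by the study on libraries of the same series and are not independent evidence of a direction.

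Of 21 immediate early genes, 16 were lower in Aro0.5, 5 of them at an unadjusted p under 0.05, against 3.6% of all genes. On the higher side 1 stood at that level, against 5.08%, and the list median was -0.25. With 1 pup left out, the lower count ran from 1 (without Aro0.5 pup 94-3y) to 8 (without CPF1 pup 63-5y), and the median was -0.49 without Aro0.5 pup 98-8y. Egr2 (-0.99) and Fosb (-1.56), both transcription factors induced by activity, had the lowest values, and Fosb rested on CPF1 pup 60-6y, with 6.52 normalized CPM against 0.334 to 1.57 in the other 7. Klf4 was on the other side, with 4.10, 5.11, 4.67 and 5.22 normalized CPM in the Aro0.5 pups and 3.14, 3.14, 3.48 and 3.12 in the CPF1 pups and no overlap (log2 fold change 0.57, SE 0.14, edgeR adjusted p = 0.467). Per1, a clock gene that also responds to glucocorticoids, was at 76.3% of CPF1 (log2 fold change -0.39, SE 0.09, edgeR adjusted p = 0.407), while the glucocorticoid target Tsc22d3 was higher without overlap (0.26). Crh, corticotropin-releasing hormone, was at 1.27 ± 0.120 against 2.30 ± 0.389 normalized CPM (SD, log2 fold change -0.85, SE 0.20, edgeR adjusted p = 0.400). All 8 pups were dissected between 10.47 and 12.15 (hours and minutes of the day), and with the time of dissection as a covariate edgeR again called 0 genes.

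Heat shock and unfolded protein genes were higher in 18 of 19, with a median of 0.15. At an unadjusted p under 0.05 stood 5, against 5.08% of all genes on the higher side. The list count ran from 2 (without Aro0.5 pup 94-3y) to 7 (without CPF1 pup 63-5y). Hspa8, a constitutive chaperone, gave 0.25, and Ddit3, of the endoplasmic reticulum stress response, 0.55. Astrocyte genes were higher in 17 of 19 (median 0.16, 2 at an unadjusted p under 0.05), with a median of 0.054 without Aro0.5 pup 98-8y and 0.086 with limma-voom. The 2 genes were Atp1b2 (0.42) and S100b (0.31). Cytosolic ribosomal protein genes had a median of -0.04 over 83 tested. No gene for oligodendrocytes or microglia reached an unadjusted p under 0.05 in edgeR, and DESeq2 called 0 of either list.

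**Figure D3:**
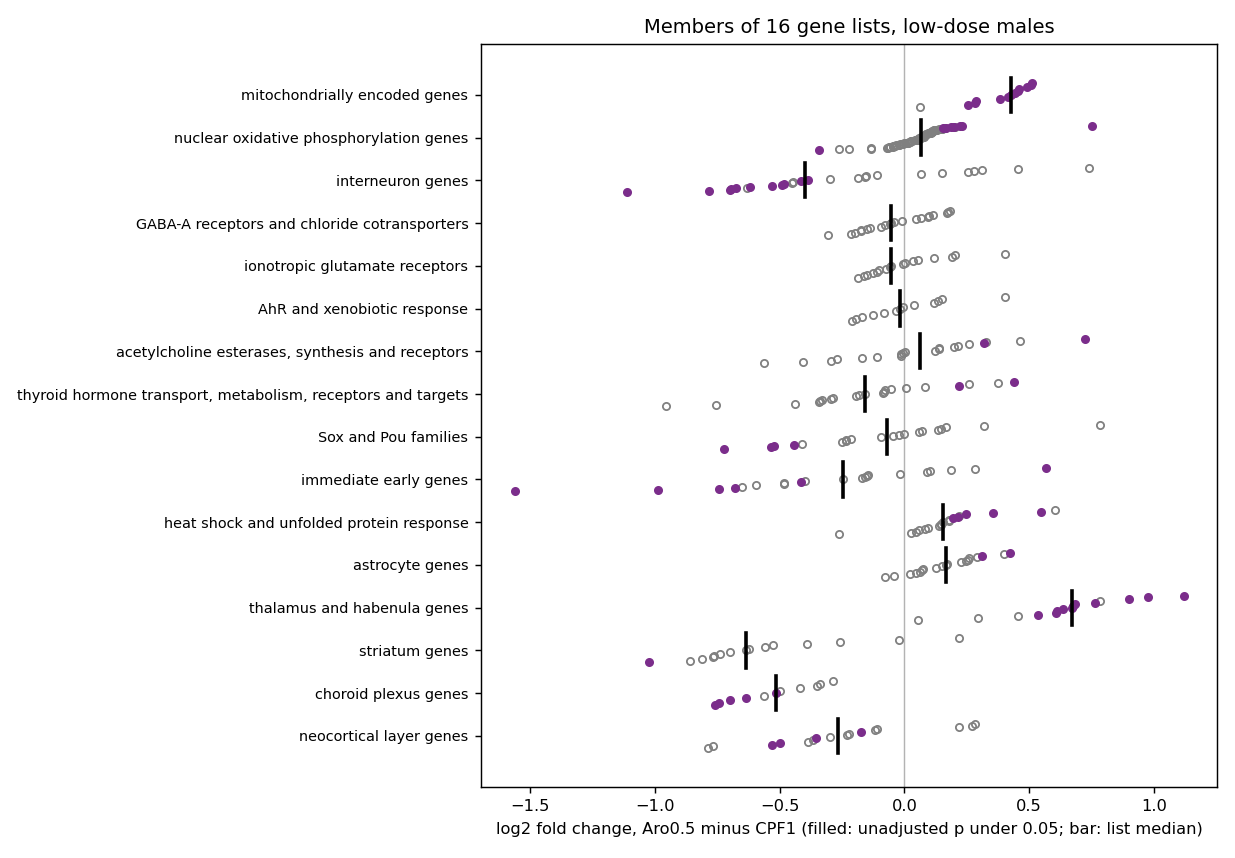
Log2 fold change of each tested member of 16 gene lists between Aro0.5 and CPF1, with filled points at an unadjusted edgeR p under 0.05, open points above it and a bar at the list median. The mitochondrially encoded and thalamus lists lie to the right of 0, and the interneuron, striatum and choroid plexus lists mostly to the left.

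The same pair of chemicals at the high doses, Aro5 (5 mg/kg, 6 male pups) and CPF3 (3 mg/kg, 7 male pups), gave other values. No pup is shared with the low doses, and 2 of the Aro5 pups were littermates. Titles of the low-dose libraries carry a capital Y and those of the Aro5 and CPF3 males a lower-case y. Dose level and title form thus coincide, and their parts cannot be told apart. Of 16312 genes tested by edgeR, 0 (0%) had an adjusted p under 0.05, 162 were higher and 162 lower at an unadjusted p under 0.05 (0.993% of genes in each direction), and DESeq2 called 1 (Slfn4, an immune gene that is on none of the lists). The medians between Aro5 and CPF3 were 0.06 for mitochondrially encoded genes, 0.03 for interneuron genes, -0.35 for the thalamus list and 0.69 for the striatum list. Of the Aro5 pups, 1 was dissected at 15.45 and 1 at 9.45. With only the 4 Aro5 and 7 CPF3 pups inside the dissection window, the 4 medians were 0.07, -0.02, -0.29 and 0.67. ND1 gave 0.06 between Aro5 and CPF3, Sst -0.05 and Dlx2 -0.15.

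The test of the difference between the 2 dose levels called 0 of 16894 genes (0%) in edgeR, with 913 at an unadjusted p under 0.05 (5.4%), and 0 in DESeq2. A difference between the title forms cancels in this test only if it is the same for both chemicals. By this test ND1 had an unadjusted p of 0.00719, Bc1 of 0.000208, and Sst of 0.0969. Over the 15868 genes tested at both levels, the 2 sets of log2 fold changes had a Pearson correlation of -0.18, given as a description across genes, which are not independent.

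**Figure D4:**
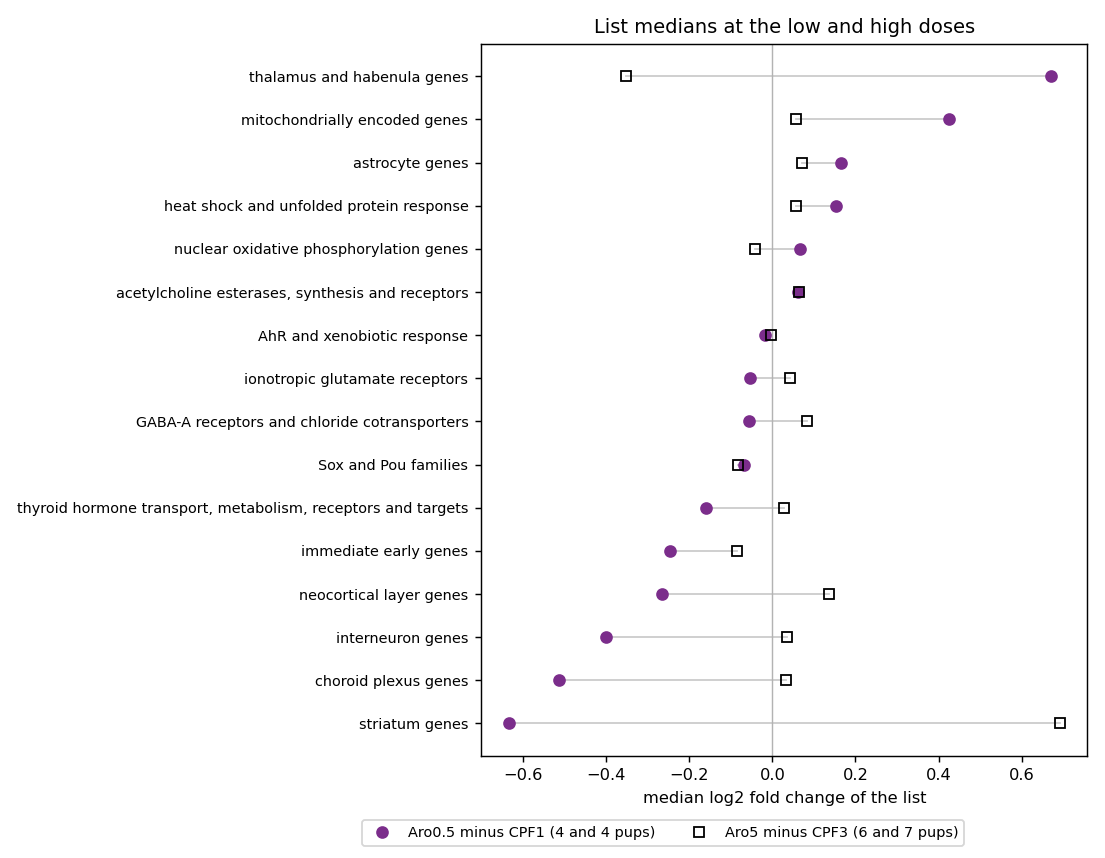
Median log2 fold change of 16 gene lists between Aroclor 1254 and chlorpyrifos at the low doses (filled circles) and at the high doses (open squares). The thalamus list stands at 0.67 and -0.35, the striatum list at -0.63 and 0.69, and the mitochondrially encoded genes at 0.43 and 0.06.

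Each chemical was also set against the controls of its own route, as Aro0.5 minus CONF less CPF1 minus CONSC, over 17 male pups. This contrast uses the same 8 treated pups, and its values stand beside the direct ones only for comparison. Of 16018 genes, 0 (0%) passed in edgeR, 669 had an unadjusted p under 0.05 (4.18%), and DESeq2 called 1. That gene was Trnm, with an edgeR log2 fold change of -0.79 in this contrast beside -0.47 in the direct one. The median was 0.25 for mitochondrially encoded genes, with CONF minus CONSC itself at 0.16, and -0.37 for interneuron genes, with CONF minus CONSC at -0.05. Sst gave -0.58, Dlx1 -0.58, ND1 0.25 and Bc1 0.44. CONF minus CONSC itself was -0.04 for Sst, 0.25 for ND1 and 0.78 for Bc1. The edgeR unadjusted p of that control difference was 0.00527 for ND1 and 0.00362 for Bc1, with an adjusted p of 0.998 for each. The direct values of Sst and Dlx1 were -0.62 and -0.48, and those of ND1 and Bc1 0.51 and 1.22.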

How the data were processed

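RNA-seq of dorsal hippocampus was analysed in 4 Aro0.5 and 4 CPF1 male pups, with Aro5, CPF3, CONF and CONSC males for comparison. The authors aligned reads to rat build Rnor_6.0 with STAR, counted them per gene with featureCounts and deposited raw counts per gene; kallisto is also named in the submitters' processing notes, and versions are not given in the sources used here. Kits were stranded, but neither strand use in counting nor the treatment of multiply mapped reads is stated, so that overlapping genes and copies are uncertain. Groups came from the sample labels. Counts were tested in edgeR 4.0.16 (R 4.3.3) with filterByExpr, TMM and quasi-likelihood F tests, with Benjamini-Hochberg adjustment over all genes tested and an adjusted p under 0.05 as threshold. The script was checked on simulated data. DESeq2 1.42.0 and limma 3.58.1 were alternatives, and ratios and figures used Python 3.11.15. Entries that share a symbol, 865 in all, kept their own identifiers. P-values measure the spread between pups, which in the main comparison were each of another litter. Aro5 pups 120-1y and 120-2y shared a litter and were entered as separate pups. Sex labels of the 8 Aro0.5 and CPF1 libraries were checked on Y-linked genes, and none of these disagreed.

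Named genes were those with the smallest p among non-overlapping genes of at least 20 mean counts in each direction, up to 12, the 2 leading members of each list, and preset genes of the exposure pathways. Lox, Slfn4, Dlx1 and some further list members (among them Slc32a1, Gad1, Gad2, COX1, ND6 and Fosb) were named after their values were seen. Some genes that the rule chose are not reported here. Lists were not tested as sets. Members and lists were chosen with earlier results of these data known. Promoter sequences came from RefSeq (GRCr8), with 11 of 13 tested aryl hydrocarbon receptor genes matched by gene ID.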

Additional observations from a re-analysis of the deposited data

Results flagged for a closer look

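Single pups stood apart from the other 3 of their group, by a gap wide enough for Dixon's test at 4 samples, in 11 of 220 groups of values examined, and chance gives about 1 in 20. ATP6 was at 12636 normalized CPM in Aro0.5 pup 105-5y, against 15167 to 15676 in the other 3. In Aro0.5 pup 98-8y, Il11 stood at 1.52 normalized CPM, with the other 3 at 2.11 to 2.19. For Atp2a3, Aro0.5 pup 98-8y had 5.28 normalized CPM and the other 3 had 3.11 to 3.24. Klf4 was at 3.48 normalized CPM in CPF1 pup 60-6y, against 3.12 to 3.14 in the other 3. In CPF1 pup 60-6y, Vamp2 stood at 918 normalized CPM, with the other 3 at 1073 to 1077. For Atp1b2, CPF1 pup 63-5y had 585 normalized CPM and the other 3 had 467 to 475. Ahsp was at 3.43 normalized CPM in Aro0.5 pup 105-5y, against 1.70 to 1.85 in the other 3. In Aro0.5 pup 106-3y, Lhx9 stood at 68.4 normalized CPM, with the other 3 at 95.0 to 97.3. For Rps21, CPF1 pup 60-6y had 163 normalized CPM and the other 3 had 119 to 124. Crh was at 1.72 normalized CPM in CPF1 pup 21-1y, against 2.47 to 2.53 in the other 3. In Aro0.5 pup 106-3y, LOC100362275 stood at 13.3 normalized CPM, with the other 3 at 9.59 to 9.81. The test of the difference between the low-dose and high-dose comparisons called 0 of 16894 genes in edgeR and 0 in DESeq2, with 913 at an unadjusted p under 0.05 in edgeR.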

How the results depend on the processing

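Calls depended on the tool and the filter, and the cause was not tested. Between Aro0.5 and CPF1, edgeR called 0 genes with a filter of at least 10 counts in every pup, with libraries thinned to the smallest, with DESeq2's size factors, with the time of dissection and in 1 fit with all low-dose and control males, and limma-voom called 0. DESeq2 called 45, and edgeR without a filter beyond 1 count 13. Leaving out 1 pup gave 0 to 4 calls, with 4 (ND1, ND2, ATP6 and Bc1) only without Aro0.5 pup 105-5y. Genes at an unadjusted p under 0.05 numbered 1388, and 791 without Aro0.5 pup 94-3y and 877 without CPF1 pup 21-1y. With the 13 mitochondrially encoded genes left out before normalization, an alternative chosen after seeing the data, edgeR called 0 genes.

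For Aro5 against CPF3, DESeq2 called 1 gene, and genes at an unadjusted p under 0.05 numbered 324, 1609 with only pups of the dissection window, and 147 (without Aro5 pup 120-2y) to 980 (without Aro5 pup 108-1y) with 1 pup left out. For the difference between dose levels these were 913, 1825 within the window and 474 (without CPF1 pup 21-1y) to 1449 (without Aro5 pup 108-1y). The 4 Aro5 pups inside the window included the littermates 120-1y and 120-2y, entered as separate pups, and their part in the window counts was not tested. For the contrast relative to each route's controls, DESeq2 called 1 gene, leaving out 1 pup gave 0 to 1 calls by edgeR (Trnm, without CONF pup N5-2y), and genes at an unadjusted p under 0.05 numbered 390 (without CONF pup N2-2y) to 1247 (without CONF pup N4-7y), against 669.

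Of 111 genes that the naming rule chose and that had a test, 106 kept their sign under every low-dose alternative. The other 5 changed sign. Slc12a5 was at -0.051 with limma-voom, and Cyp1b1 at -0.016 and Pou2f2 at 0.077 with thinned libraries. With 1 pup left out, log2 fold changes ran from -0.087 to 0.57 for Mbp (0.37 with all pups), from -0.10 to 0.34 for Cyp1b1, from -0.26 to 0.19 for Dio2, from -0.11 to 0.071 for Pou2f2 and from -0.023 to 0.19 for Slc12a5. With 1 pup left out the Pvalb/Nos1 difference ran from 1.14 to 2.05 (exact permutation p from 0.0571 to 0.143) and the KCC2/NKCC1 difference from 0.05 to 0.37. The interneuron median was -0.26 with limma-voom and ran from -0.45 to -0.29 and that of the mitochondrially encoded genes from 0.41 to 0.47, with 1 pup left out, both added after seeing the data.

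With 4 pups per group, differences below the spread between litters could not be detected, and counts near 0 (Cyp1a1, Dio3) allow no comparison. No paired analysis was possible because each of the 8 pups came from a different litter and the replicate numbers only name them.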

Other observations

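Genes of blood vessels were higher in Aro0.5 in 16 of 18 tested, with a median log2 fold change of 0.09 and 3 at an unadjusted p under 0.05 in edgeR. Among all genes, 5.08% were higher and 3.6% lower at that level. Esam, an endothelial adhesion molecule (0.23), and Vtn, which pericytes express (0.25), did not overlap between the groups. In progenitor and neurogenesis genes, 2 of 19 tested stood at that level on the higher side and 3 on the lower side, with a median of 0.00. Fabp7, a fatty acid binding protein of radial glia, gave 0.37, and Dpysl5, of growing axons, gave -0.43, both without overlap. The Notch target Hes5 gave -0.59 and Tbr1, of glutamatergic neurons, -0.53, both with overlap.

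Of 17 steroid receptor and neurosteroid genes tested, 2 were higher at an unadjusted p under 0.05 in edgeR and 0 lower, against 5.08% and 3.6% of all genes. They were Hsd11b2, which inactivates glucocorticoids (0.84), and Akr1c14, which makes allopregnanolone (0.48), while Esr1, the estrogen receptor alpha, gave -0.27. Among 15 glucocorticoid targets, Ddit4 gave -0.29 without overlap and the metallothionein Mt2A -0.47 with overlap. Of 41 splicing factors, 1 was higher and 5 lower at that level, with a median of -0.07. Hnrnpr (-0.36), Hnrnpm (-0.21) and Srrm1 (-0.17) were lower without overlap. Kif20b, a mitotic kinesin, gave -0.36 among 23 cell cycle genes, as the only gene at that level.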
